A study of Mus musculus with 2 samples.

Results

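The nuclear genes for the subunits of respiratory complexes II, III, IV and V were followed in RAW264.7 cells exposed to IR-61. A gene was taken if its symbol was *Sdha*, *Sdhb*, *Sdhc*, *Sdhd* or *Cyc1*, or began with Uqcr, Cox4, Cox5, Cox6, Cox7, Cox8 or Atp5. By this rule 48 of the 20655 genes named on the arrays were chosen, 4 of complex II, 9 of complex III, 18 of complex IV and 17 of complex V. The gene table held 14 further symbols that began the same way, all of them pseudogenes not read on these arrays. RAW264.7 is an established mouse macrophage line from BALB/c, raised from the ascites of a male adult with a tumor caused by Abelson murine leukemia virus, and both cultures were of this line. IR-61 is a near-infrared fluorescent dye that gathers in mitochondria. One culture received vehicle and the other IR-61, each for 24 h in DMEM with heat-inactivated serum, and the labels give no dose. Total RNA of each culture was labelled with Cy3 and read on 1 array, so that the question of how IR-61 moved these transcripts rests on 2 arrays.

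The respiratory chain passes electrons from nutrients to oxygen in the inner mitochondrial membrane. Complex II oxidises succinate to fumarate and belongs to the citric acid cycle as well, complex III carries electrons from ubiquinol to cytochrome c, and complex IV hands them to oxygen. Complexes III and IV pump protons, and complex V, the ATP synthase, lets the protons flow back and makes ATP. All subunits of complex II and most subunits of the others are encoded in the nucleus, while a few core subunits of complexes III, IV and V come from mitochondrial DNA. In macrophages this machinery is known for its part in the shift between glycolytic and oxidative states.

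Signals are the deposited spot intensities, in the scanner's arbitrary units. Differences are log2 values, IR-61 minus vehicle, after the 75th percentile of each array was subtracted. This percentile was higher by 0.49 on the IR-61 array, so a gene whose raw signal was somewhat higher with IR-61 can have a difference below 0. With 1 array per condition there was no replicate culture, no test was possible, and what IR-61 did cannot be told apart from a difference between cultures or arrays. The error given with a difference is an SD derived from how far spots of 1 probe scattered on an array, which was 0.09 for a bright probe printed once and covers noise within an array only. In such bulk RNA, fewer cells of a type and less RNA per cell cannot be told apart. All 7 macrophage markers named on the arrays were well above background, with vehicle signals from 1002 to 95036, and their summed signal, unscaled, went from 199137 to 369027. After scaling, *Adgre1* (1.03) and *Itgam* (0.65) were higher with IR-61 and *Cd14* (-0.98) and *Spi1* (-0.83) lower. The 3 fibroblast markers were also well above background, from 860 to 27148, and their sum, unscaled like those that follow, went from 43036 to 82761. T cell, B cell and epithelial markers were well above background in 2 of 3, 3 of 3 and 2 of 3 genes and read 684 or less on the vehicle array, and their sums went from 709 to 984, from 581 to 488 and from 252 to 256. The part of these genes in the results was not tested.

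Of the 48 subunit genes, 46 were well above background on both arrays. Their median difference was 0.03 and the median over all 16885 measured genes was 0.10. The differences ran from -0.63 for *Uqcrc1* to 0.71 for *Cox4i2*, and 41 of the 46 genes lay within 0.32 of 0, that is less than 25% higher and less than 20% lower, a share of 89.1% where it was 59.3% over all genes. None was lower or higher by 2-fold or more, beside 3.39% of all measured genes. Past the limit of 0.32, 2 genes were lower, *Uqcrc1* and *Cyc1*, where 14.5% of all genes were lower. Past the same limit 3 were higher, *Cox4i2*, *Cox6a2* and *Cox6b2*, where 26.2% of all genes were higher. Without scaling between the arrays, 42 were higher past this limit and 0 lower, where 76.0% of all genes were higher and 2.45% lower on the brighter IR-61 array. The median of the subunit genes lay 0.07 below that of all genes, but 0.01 above it with quantile normalization and 0.10 above it with another background correction, so no direction relative to other genes was settled.

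**Figure D1:**
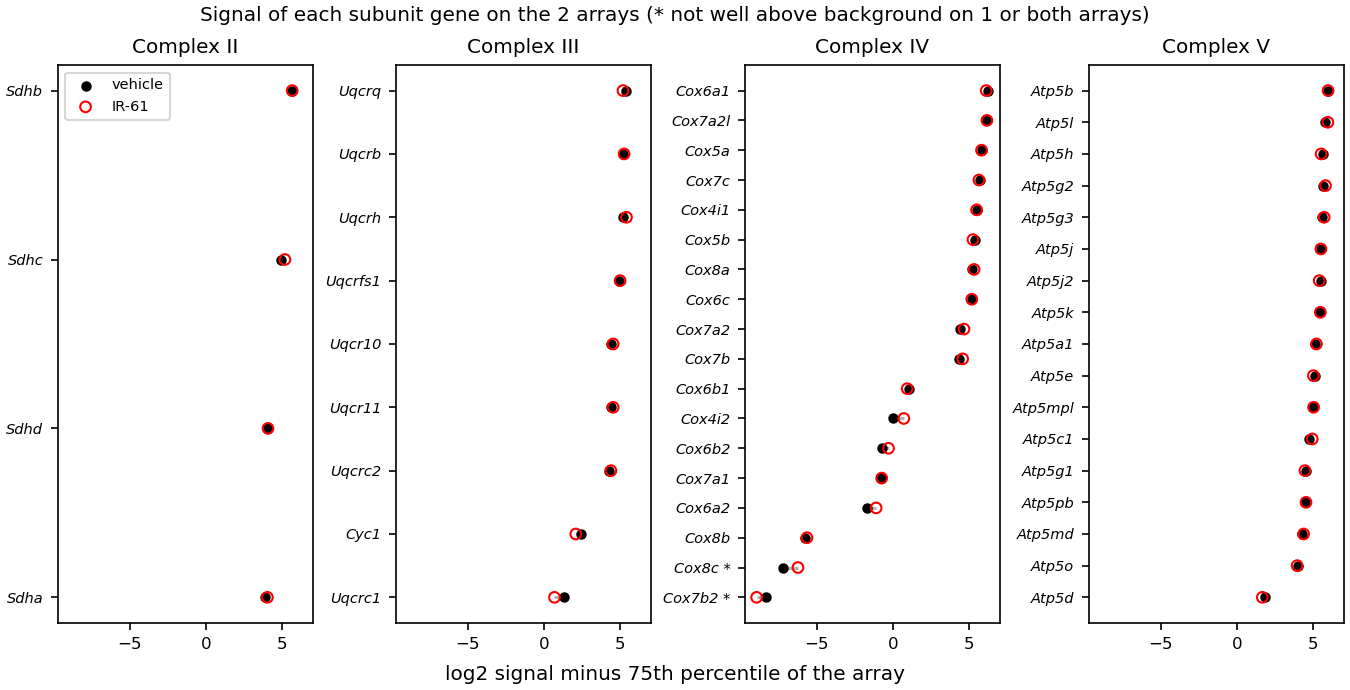
Signal of each subunit gene on the vehicle array (filled) and the IR-61 array (open), as log2 signal minus the 75th percentile of that array. Most pairs of points overlap, and the widest gaps among the genes measured on both arrays are those of *Cox4i2*, *Uqcrc1* and *Cox6a2*; the order of genes along the axis also reflects their probes.

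Most of these genes were bright. A scaled log2 signal of 4 or more was reached by 35 of them, and in these the differences ran from -0.20 to 0.28 with an SD across genes of 0.12. None of the 35 was past 0.32 either way. Of all 1137 genes with a scaled log2 signal of 4 or more, here called bright, 7.12% were lower and 14.0% higher. The median of the 35 was 0.04 and that of the bright genes was 0.03, so the centres were alike. The SD across the bright genes was 0.29, beside 0.12 in the 35. Of the 7 subunit genes with a scaled log2 signal from 0 to 4, 4 lay within 0.32 of 0 (57.1%, beside 59.1% of all genes at this signal). Of the 4 with a scaled signal under 0, 2 did (50%, beside 57.2%). All subunit genes past the limit were thus among these dimmer ones.

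**Figure D2:**
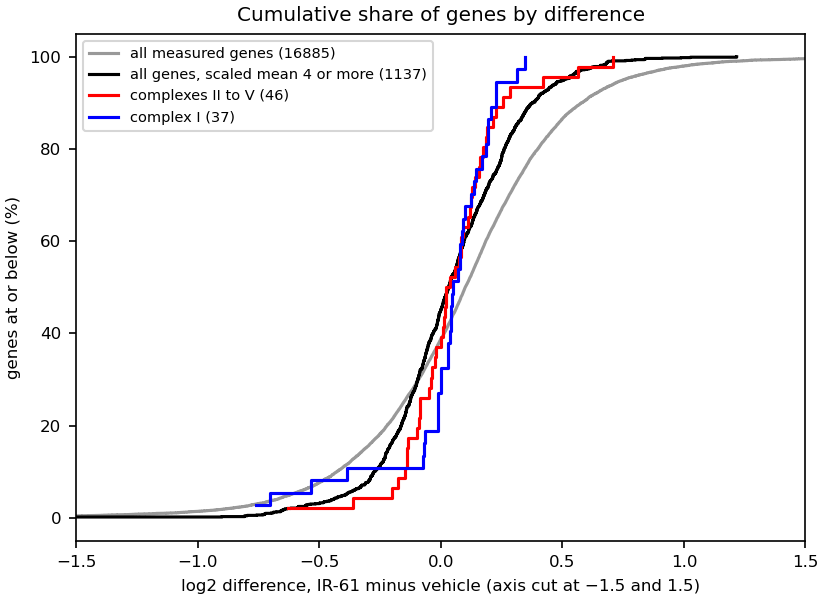
Cumulative share of genes (%) against the log2 difference, IR-61 minus vehicle, for all 16885 measured genes, the 1137 of them with a scaled log2 signal of 4 or more, the 46 subunit genes of complexes II to V and the 37 of complex I. The curves of the subunit genes climb more steeply than that of all genes, with 89.1% of the complexes II to V genes within 0.32 of 0.

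Genes of the respiratory chain are known targets of the transcription factors NRF1, GABPA (an ETS factor, also called NRF2) and YY1. RefSeq promoters of GRCm38.p6 were at hand for 36 of the 48 genes, each a window of 300 bases around the start of the gene, and 3 motifs were searched on both strands. The NRF1 core CGCATGCG stood in 7 of 36 windows (19.4%), and in 2.07% of 27025 gene promoters. The ETS core CCGGAAG, or CTTCCGG on the other strand, stood in 13 of 36 (36.1%), and in 9.93% of all. The YY1 motif AAGATGGCG stood in 2 of 36 (5.56%), and in 1.64% of all. Both the NRF1 and the ETS core were held by *Atp5j*, *Atp5k*, *Atp5l*, *Cox6a1* and *Uqcr11*, 5 of 36 windows (13.9%) beside 0.426% of all. The genes with an NRF1 core had a median difference of 0.04, those without it 0.02, and with the ETS core the medians were 0.02 and 0.05. The pair with the YY1 motif, *Atp5j* and *Atp5j2*, were at -0.02 and -0.09, and the genes without it had a median of 0.04. These medians were not tested.

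The bases upstream of the start are shown for *Atp5j*, a stalk subunit of the ATP synthase whose promoter held all 3 motifs, and for *Cox6b1* and *Cox6b2*, the common and the testis form of the same complex IV subunit, which had unlike differences. Each runs 5′ to 3′ on the strand of its gene, which is the minus strand in all of them, and capitals mark the motifs. In *Atp5j* (chr16:84834977-84835226) they are, from left to right, the NRF1 core, the YY1 motif and the ETS core, and in *Cox6b1* (chr7:30626115-30626364) the ETS core on the other strand. In *Cox6b2* (chr7:4753095-4753344) none of the motifs was in this window.
Atp5j: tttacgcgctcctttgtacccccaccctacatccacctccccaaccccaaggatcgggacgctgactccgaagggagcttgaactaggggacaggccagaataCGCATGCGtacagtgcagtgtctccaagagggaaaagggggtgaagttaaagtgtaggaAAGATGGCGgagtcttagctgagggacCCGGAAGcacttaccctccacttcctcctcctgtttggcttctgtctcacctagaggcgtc
Cox6b1: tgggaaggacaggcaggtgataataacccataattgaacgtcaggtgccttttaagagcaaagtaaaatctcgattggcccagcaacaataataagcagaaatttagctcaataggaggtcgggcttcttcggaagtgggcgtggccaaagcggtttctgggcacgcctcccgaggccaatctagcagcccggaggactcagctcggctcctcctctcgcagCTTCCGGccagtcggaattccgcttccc
Cox6b2: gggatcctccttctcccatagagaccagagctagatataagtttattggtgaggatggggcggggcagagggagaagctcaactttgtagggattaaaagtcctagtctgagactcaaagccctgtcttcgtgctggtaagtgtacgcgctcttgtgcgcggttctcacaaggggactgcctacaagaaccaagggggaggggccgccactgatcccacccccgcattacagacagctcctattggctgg

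Complex II has a catalytic pair of subunits and a pair that anchors it in the membrane, and all 4 genes were well above background. Their median difference was 0.10, equal to that of all genes, and the range was 0.02 to 0.26. *Sdha*, the flavoprotein that binds succinate, read 18190 with vehicle and 29034 with IR-61, a difference of 0.19 (SD 0.09). *Sdhb*, the iron-sulfur subunit, read 62875 and 89502, a difference of 0.02 (SD 0.09). The anchor *Sdhd* read 21026 and 29800 (0.02, SD 0.09), and the anchor *Sdhc* read 38362 and 64305, the highest difference of the complex at 0.26 (SD 0.09). *Sdhc* thus stood apart from 0 by more than 2 SD between spots, and *Sdhb* and *Sdhd* by less than 1.

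The *Sdhb* and *Sdhc* values depended on the probe. A second probe of *Sdhb* differed by -0.58 (SD 0.09) and a second probe of *Sdhc* by -0.48 (SD 0.09), opposite in sign to the brighter probe that stands for each gene. With the mean over probes *Sdhb* was at -0.28 and the complex II median at -0.05. No direction can be given for these genes.

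Complex III had the widest spread below 0. Its 9 genes had a median of 0.08, ran from -0.63 to 0.23, and 2 of them were lower by more than 20%. *Uqcrc1*, a core subunit on the matrix side, read 3178 with vehicle and 2882 with IR-61, which was 1.55-fold lower after scaling (log2 -0.63, SD 0.09). It was the lowest of the 46 genes and ranked 813 from the lowest among the 16885 measured. Under every alternative processing its difference stayed below 0, from -0.71 to -0.62 where arrays were scaled and -0.14 where they were not. *Cyc1*, the cytochrome c1 that passes electrons on to cytochrome c, read 6946 and 7585, 1.28-fold lower (log2 -0.36, SD 0.09). Its raw signal was slightly higher with IR-61, and without scaling its difference was 0.13.

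The partner of *Uqcrc1* in the core, *Uqcrc2*, was not lower and, as processed here, lay close to the median of all genes (0.10). Its probe was printed in 10 spots on each array, the only subunit gene with repeated spots, and 9 of the 10 were used on the IR-61 array. The vehicle spots read from 22794 to 26063 with a median of 24777, and the IR-61 spots from 35185 to 39547 with a median of 37466. After scaling, the means were 4.27 ± 0.06 (SD, 10 spots) and 4.40 ± 0.06 (SD, 9 spots), a difference of 0.13 (SD 0.03). The difference depended on the processing more than on the spots. Where arrays were scaled it ran from 0.04 with scaling by the median to 0.19 with normexp, and without scaling it was 0.61. The scaled spots overlapped, running from 4.17 to 4.37 with vehicle and from 4.31 to 4.48 with IR-61. These spots measure 1 RNA sample per condition and are no replicates of it.

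*Uqcrfs1*, the Rieske iron-sulfur protein, differed by 0.08, close to the median of all genes. Of the 5 small subunits, *Uqcrb*, *Uqcr10* and *Uqcr11* lay between 0.06 and 0.14. *Uqcrh*, the hinge protein, read 46179 and 75903 and was the highest of the complex at 0.23 (SD 0.09), with 0.26 from its second probe. *Uqcrq* read 53067 and 64785 and was lower by 0.20 on the log2 scale (difference -0.20, SD 0.09), with -0.40 from its second probe. Both probes of each of these genes therefore pointed the same way.

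**Figure D3:**
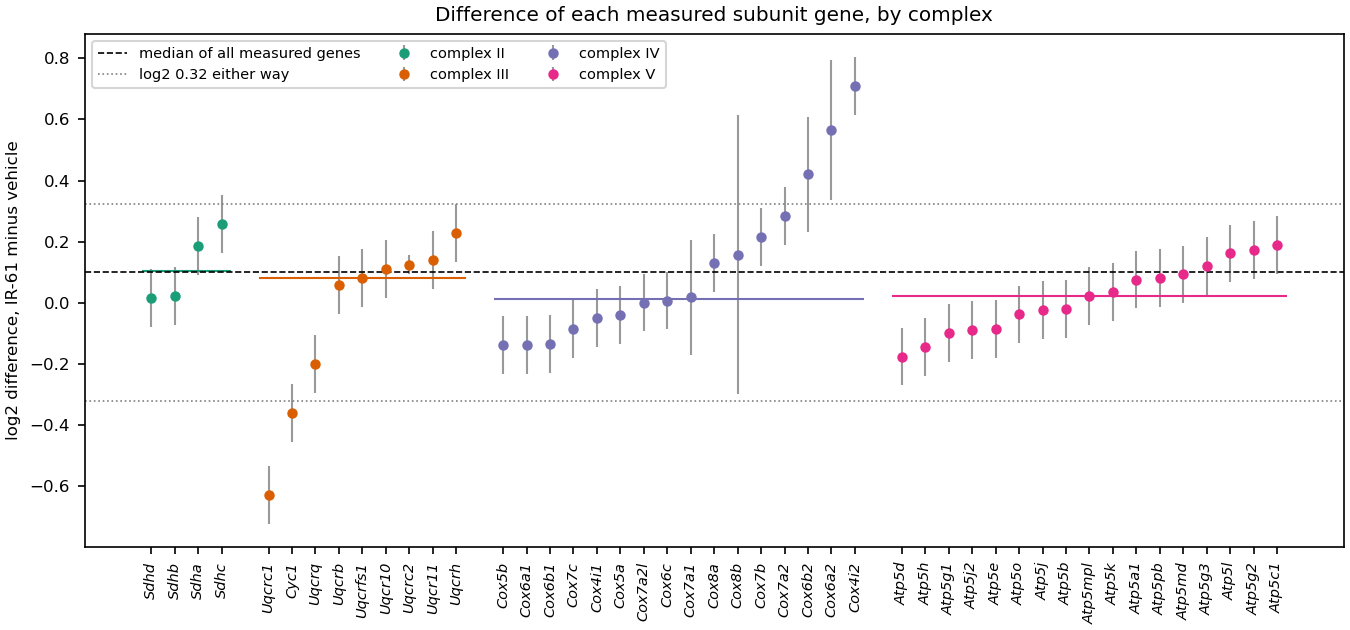
Log2 difference, IR-61 minus vehicle, of the 46 measured subunit genes ordered within each complex, with bars of 1 SD expected between spots, a solid line at the median of each complex, a dashed line at the median of all genes (0.10) and dotted lines at 0.32 either way. *Uqcrc1* and *Cyc1* lie below the lower dotted line and *Cox6b2*, *Cox6a2* and *Cox4i2* above the upper one.

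Complex IV had 16 of 18 genes measured, with a median of 0.01 and a range from -0.14 to 0.71. It joins subunits made in most tissues with forms made mainly in muscle, testis or lung, which are described apart. The 10 common subunits had a median of -0.04 and ran from -0.14 to 0.28, all within the limit of 0.32. The 5 measured tissue-restricted forms had a median of 0.42 and ran from 0.02 to 0.71, and 3 of the 5 were higher by more than 25%, as were 26.2% of all genes. With so few genes and no test, no difference between the groups can be called.

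*Cox4i2*, the lung form of subunit 4, which is known to be induced by low oxygen, read 1261 with vehicle and 2891 with IR-61, a 1.64-fold higher value after scaling (log2 0.71, SD 0.09). Its common counterpart *Cox4i1* read 58265 and 78983 and differed by -0.05 (SD 0.09), or by 0.13 with normexp background correction. *Cox6a2*, the heart and muscle form of subunit 6a, read 396 and 821, a difference of 0.57 (SD 0.23), and the common *Cox6a1* read 96110 and 122452, a difference of -0.14 (SD 0.09). *Cox6b2*, the testis form of subunit 6b, read 768 and 1441, a difference of 0.42 (SD 0.19), and the common *Cox6b1* read 2635 and 3366, a difference of -0.13 (SD 0.09). These pairs hold the restricted forms that were higher past the limit, so a higher restricted form was set by the choice of pairs. The restricted forms were higher without scaling as well. As processed here, the common form of each pair was below 0 although its raw signal was higher, but *Cox4i1* was above 0 with normexp. The other pairs with both forms measured did not share this pattern. *Cox7a1* was at 0.02 and its common form *Cox7a2* at 0.28, and *Cox8b* was at 0.16 and its common form *Cox8a* at 0.13.

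The remaining restricted forms were mixed. *Cox7a1*, the heart and muscle form of subunit 7a, read 744 and 1057 and differed by 0.02 (SD 0.19), while its common form *Cox7a2* read 26063 and 44499 and was the highest common subunit at 0.28 (SD 0.09). *Cox8b*, of muscle, read 22.7 and 35.4, a difference of 0.16 with an SD of 0.46 that turned to -0.14 with normexp, and the common *Cox8a* differed by 0.13. *Cox8c*, of testis, was not well above background on the vehicle array and read 23.5 on the IR-61 array. It was 1.31-fold higher (log2 0.39) when the dim side was set at the lowest signal of a probe well above background. This was less than its SD of 0.46, so no direction can be given. *Cox7b2*, also of testis, was not well above background on either array, and the common *Cox7b* read 25724 and 41863 (0.21, SD 0.09).

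Striated muscle markers were read as well, although both cultures were of a macrophage line. Of the 4, 3 were well above background on both arrays, *Myh6*, *Myh7* and *Ckm*, with vehicle signals of 110 or less. *Actn2* was not on either. The summed signal of the 4, unscaled, went from 216 to 354. After scaling, *Ckm* (0.61) and *Myh7* (0.34) were higher and *Myh6* was at -0.04. The part of these markers in the values of *Cox6a2*, *Cox7a1* and *Cox8b* was not tested. The lowest common subunits were *Cox5b*, which read 52485 and 66852 (-0.14, SD 0.09), and *Cox6a1*. *Cox5a* and *Cox6c* were at -0.04 and 0.01. *Cox7c* was at -0.09 by its brightest probe and at 0.01 and 0.30 by its others, so its sign was not settled. *Cox7a2l*, which joins complexes III and IV into supercomplexes, had 3 probes at 0.00, 0.16 and -0.36, so its difference of 0.00 from the brightest probe, which read 89721 and 125886, hid a wide range.

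Complex V was the most even of the larger complexes. All 17 genes were measured, all lay within the limit of 0.32, and the median was 0.02 with a range from -0.18 to 0.19. Relative to the median of all genes 13 were lower and 4 higher, but with normexp the median of the complex lay 0.07 above that of all genes. The 5 subunits of the F1 part, the catalytic head together with the central stem, had a median of -0.02. *Atp5a1*, the alpha subunit, read 44653 and 66008, a difference of 0.08 (SD 0.09), and *Atp5b*, the beta subunit that holds the catalytic sites, read 80799 and 111795, a difference of -0.02 (SD 0.09). Neither differed from 0 by more than 1 SD between spots, although *Atp5a1* was at 0.24 with normexp.

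The gamma and delta subunits of the central stem lay at the ends of the complex as processed here. *Atp5c1* (gamma) read 34122 and 54519 and was at 0.19 (SD 0.09), although its second probe was at -0.06. It was not the highest under every processing, since *Atp5l* and *Atp5g2* were above it with quantile normalization (0.22 and 0.21 against 0.20), with the deposited log2 values and with normexp, and the mean over its probes was 0.06. *Atp5d* (delta) read 4533 and 5629 and was the lowest at -0.18 (SD 0.09). The epsilon subunit *Atp5e* differed by -0.09.

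The c ring, which turns as protons pass, is built from 1 protein encoded by 3 genes. *Atp5g1* read 29856 and 39104 (-0.10, SD 0.09), *Atp5g2* read 63025 and 99679 (0.17, SD 0.09) and *Atp5g3* read 61516 and 93751 (0.12, SD 0.09). The difference of *Atp5g1* was thus below those of the other members of its family. The 4 genes of the outer stalk, *Atp5h*, *Atp5j*, *Atp5o* and *Atp5pb*, ran from -0.15 to 0.08, and *Atp5h* read 64336 and 81588 (-0.15, SD 0.09) with 0.13 from its second probe. The 5 membrane subunits *Atp5j2*, *Atp5k*, *Atp5l*, *Atp5md* and *Atp5mpl* ran from -0.09 to 0.16.

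Between complexes, the medians ran from 0.01 for complex IV and 0.02 for complex V to 0.08 for complex III and 0.10 for complex II. The ranges of the complexes overlapped, and the differences between their medians were not tested. Without the restricted isoforms the complex IV median was -0.04 and that of the 41 remaining subunit genes was 0.02. The order was not stable, since complex II had the highest median relative to all genes under every other processing run and the lowest with the mean over probes.

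**Figure D4:**
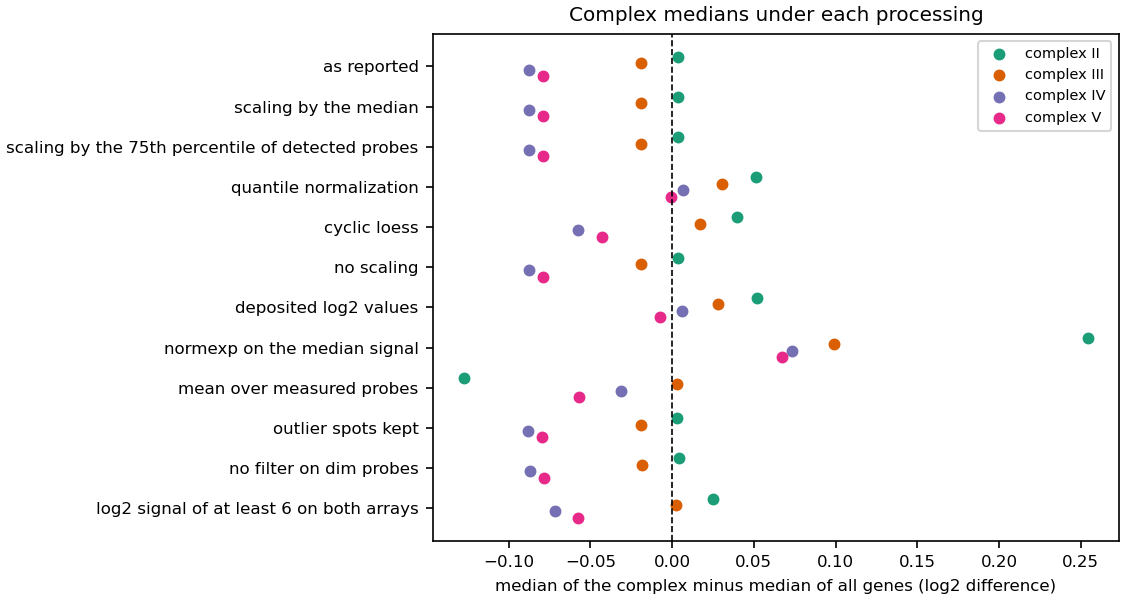
Median log2 difference of each complex minus the median of all measured genes, for the processing as reported and 11 alternatives, 1 per row. Complex II moves from the highest to the lowest median when all probes of a gene are averaged, and with normexp background correction all 4 medians lie above that of all genes.

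Several probes allowed a check within the arrays for 16 genes. In 9 of them the probes agreed within 0.2 on the log2 scale, among them *Uqcr10*, *Uqcrh*, *Atp5g2*, *Atp5pb*, *Atp5j2* and *Cox8a*. In 8 genes the probes gave both signs, and in 3, *Sdhb*, *Sdhc* and *Cox7a2l*, they differed by over 0.5. The 5 probes of *Atp5l*, a subunit of the membrane part, ran from -0.13 to 0.18. *Uqcrc1*, *Cyc1*, *Cox4i2*, *Cox6a2* and *Cox6b2*, the genes past the limit of 0.32, had 1 probe each, so that no second probe could be set beside them.

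**Figure D5:**
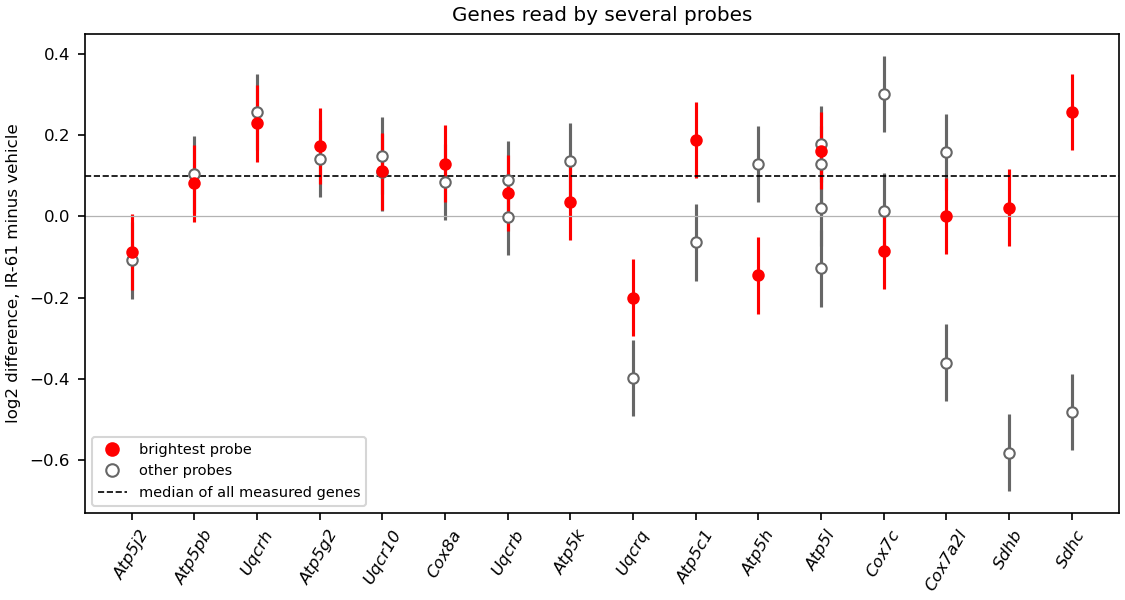
Log2 difference, IR-61 minus vehicle, of every measured probe of the 16 subunit genes with several probes, with bars of 1 SD expected between spots, filled for the brightest probe and open for the others. Genes are ordered by the range of their probes, which is 0.02 at the left and 0.74 for *Sdhc* at the right.

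The remaining genes of the chain were read beside these. Complex I, which takes electrons from NADH, had 37 genes by the prefix Nduf, its assembly factors and *Ndufa4* left out and *Ndufa4l2* included, and all were measured. Their median difference was 0.05 and the range was -0.76 to 0.35. None was past 2-fold, 1 was higher past 0.32, *Ndufb3*, and 4 were lower. Among these 4 were *Ndufa10* (-0.76, SD 0.09), *Ndufs8* (-0.53, SD 0.09) and *Ndufa11* (-0.38, SD 0.23). The higher and the lower genes were 2.70% and 10.8% of the complex I genes, both below the shares of 26.2% and 14.5% over all genes. They were all among the 14 complex I genes with a scaled log2 signal under 4. Of these 14, 28.6% were lower past 0.32, above the 15.0% of all genes at that signal. Higher were 7.14% of the 14, beside 27.1% of all genes at that signal. The complex I genes past the limit were named after their values were seen. *Ndufb8*, an accessory subunit of complex I, read 29324 and 44811 (0.12, SD 0.09), and *Ndufa4*, now placed in complex IV, read 44251 and 70219 (0.18, SD 0.09). *Cycs*, cytochrome c itself, read 36339 and 56537 (0.15, SD 0.09).

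Assembly and partner factors were listed for complexes II to V, 34 genes of which 31 were measured. Their median was 0.05 and the range -0.79 to 0.32. None was higher past 0.32, where 26.2% of all genes were higher. Past the same limit 4 factors were lower, 12.9% of those measured, beside 14.5% of all genes. The lower factors were *Cox10* (-0.79, SD 0.23), which takes part in making the heme A of complex IV, and *Coa4* (-0.50, SD 0.09), a complex IV assembly factor. The others were *Uqcc1* (-0.44, SD 0.23), a complex III assembly factor, and *Sdhaf1* (-0.42, SD 0.09), which helps insert iron-sulfur clusters into *Sdhb*. All 4 too were named after their values were seen. *Lyrm7*, of complex III assembly, was not well above background on either array, and *Pet100* and *Pet117*, of complex IV assembly, were not analysed here.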

How the data were processed

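Total RNA of 1 vehicle and 1 IR-61 culture was read on single-colour Agilent arrays of 1 slide. The authors deposited spot intensities from Feature Extraction (version 11.0.0.1 per the labels, 11.0.1.1 per the file headers), background-subtracted and detrended, with 0/1 flags (score) for outlier, saturated and well above background spots. They also deposited log2 values per probe, whose making is not given in the sources used here; both columns have a median of 7.16.

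From the intensities, control spots and outlier spots (124 and 139) were left out, no spot was saturated, spots of the same probe were averaged as log2 values, and each array was set to 0 at its 75th percentile. Well above background were 77.6% and 81.2% of 39429 probes. Of 39419 probes on both arrays 27224 were named by accession through RefSeq (GRCm38.p6, names only, as the array design is older). A gene took its brightest probe, and was measured if well above background on both arrays. Spot SDs came from those of the 399 probes printed several times that were well above background on the array. No test was possible, and the number of arrays limits the precision. Genes named were the 5 lowest and 5 highest, the extremes of each complex, those past 0.32 (25% higher or 20% lower), *Sdhb*, *Uqcrc2*, *Atp5a1*, those with repeated spots or probes over 0.5 apart, and unmeasured ones, besides *Ndufa4*, *Ndufb8* and *Cycs*. The values of 1 complex I gene are not reported here. Members and lists were chosen with earlier results of these data known. Scripts were tested on simulated data (Python 3.11.15, pandas 2.3.3, R 4.3.3, limma 3.58.1), and 11 alternatives were run.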

Additional observations from a re-analysis of the deposited data

How the results depend on the processing

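The medians and counts of the subunit genes were recomputed under 11 alternatives. Scaling by the median, scaling by the 75th percentile of detected probes, quantile normalization, cyclic loess, the deposited log2 values, keeping outlier spots, dropping the filter on dim probes and a log2 signal of at least 6 moved none of the medians by more than 0.09, the SD of a bright probe's difference, and none of the counts by over 1.5 times. Since the medians lie close to 0, their sign still turned: over all subunit genes the median was -0.05 with scaling by the median, -0.0076 with the detected probes and -0.0010 with loess. The number above the median of all genes went from 17 to 25 with quantile normalization and with the deposited values. Without scaling the median was 0.52 over all subunit genes and 0.59 over all measured genes. It was 0.59 for complex II, 0.57 for complex III, 0.50 for complex IV and 0.51 for complex V. Past the limit of 0.32, 0 subunit genes were then lower and 42 higher (2.45% and 76.0% of all genes), and *Cyc1* turned to 0.13. The 2 subunit genes then past 2-fold were *Cox4i2* (1.20) and *Cox6a2* (1.05). The share of all genes past 2-fold was not computed without scaling, so this count has no background beside it. With normexp the complex II median was 0.22, the subunit genes lay 0.10 above the median of all genes and 33 of them were above it. With the mean over measured probes the complex II median was -0.048, since the second probes of *Sdhb* and *Sdhc* then count. The cause of the shift with normexp was not tested. *Uqcrc1* (-0.71 to -0.14), *Cox4i2* (0.63 to 1.20), *Cox6a2* (0.43 to 1.05) and *Cox6b2* (0.32 to 0.91) kept their sign under all 11. With normexp, though, *Cox6b2* (0.318) fell just short of the limit (0.322) and *Sdhc* (0.326) passed it, so the count of 3 higher genes held different members. The spread between spots grew from 0.07 over a log2 signal of 10 to 0.35 under 6 on the vehicle array, which limits *Cox8b* and the other dim isoforms. No paired analysis was possible because there was 1 array per condition, which gives 1 difference per probe and no spread between cultures.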
